A study of Rattus norvegicus with 3 samples.

Results

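The genes described here encode the protein subunits of the mitochondrial ribosome in rat kidney proximal tubules. They were chosen by name alone: every probe set annotated to exactly 1 gene whose symbol begins with Mrpl or Mrps followed by a number. This gave 97 probe sets of the 31099 on the array, and they named 73 genes of the 14217 named in all. Of the 73, 48 encode proteins of the large subunit and 25 proteins of the small subunit. Mrps30 and Mrps18a carry a small-subunit name, but their products sit in the large subunit in mammals and they were counted there.

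Proximal tubules from male Sprague-Dawley rats of 7 to 8 weeks were measured in 3 preparations, each on 1 Affymetrix expression array, and no other group was measured. The rats had been given 250 units of heparin 30 min before they were killed. Kidneys were perfused with saline and then with collagenase at 2 mg/ml, the cortex was digested for 20 min, and tubules were separated from other tissue in 42.5% Percoll. The labels do not say how many animals went into a preparation or whether the preparations came from different animals, so the spread over the arrays may be partly technical.

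The mitochondrial ribosome makes the few proteins encoded by mitochondrial DNA, which are core subunits of the respiratory chain and of ATP synthase. Its ribosomal RNAs are transcribed inside the organelle, whereas all its proteins are encoded in the nucleus, made on cytosolic ribosomes and imported. Many of these proteins descend from bacterial ribosomal proteins, and others have no bacterial counterpart and were added during the evolution of mitochondria. Proximal tubule cells are rich in mitochondria, because the reabsorption of filtered solutes runs on oxidative ATP production.

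All values are probe-set signal intensities on the linear scale of the deposited table. Array medians over non-control probe sets were 37.1, 37.4 and 34.9 on arrays 1, 2 and 3, and the 75th percentiles lay between 167 and 181. Probe sets differ in affinity, so differences in signal between single genes are not read as differences in transcript amount. Some of the genes named below were nevertheless picked by their signal. Gene groups are described by the median of their percentiles, the rank of a gene among all named genes on an array, and these too carry the affinities of the probes. With 1 group and no control, no difference between conditions could be tested, and all statements are descriptions. The array median used below is that of all non-control probe sets, named or not. The 8 proximal tubule markers checked, among them Lrp2, Slc34a1 and Slc5a2, exceeded it on every array, with mean signals from 3443 to 9935. Markers of other kidney cells were present at varied levels. The 3 thick limb markers summed to 10218 to 12259 per array. Their mean signals were 4942 (Umod), 4340 (Egf) and 1810 (Slc12a1), beside 3443 for the proximal marker Slc5a2. The distal tubule markers Slc12a3 (660) and Calb1 (299) exceeded the median on all arrays. So did Atp6v1g3 (80.9) of intercalated cells and Hbb (110) of red cells, whereas Slc4a1 (32.5) and Ahsp (6.34) did not. The 3 endothelial markers summed to 461, 595 and 875 on arrays 1, 2 and 3. Of 4 markers of macrophages and dendritic cells only Cd74 exceeded the median. Of the collecting duct markers, Aqp3 (mean signal 868) and Hsd11b2 (154) exceeded it on all arrays and Aqp2 (14.0) on none. The same held for Podxl (91.1) against Nphs1 (9.27) of podocytes, and for Pdgfra (302) against Col1a1 (20.6) and Lum (1.23) of fibroblasts. The part of other cells in the signals of the ribosomal protein genes was not tested. In whole tubules, the share of cells of a type and the RNA per cell cannot be told apart.

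Signals of all 73 genes exceeded the array median on every array, against 61.0% of all named genes. Above the 75th percentile of the array lay 72 of the 73 on all 3 arrays, against 36.4% of named genes, and the exception was Mrps27. The median percentile of the 73 genes was 85.4, 85.1 and 85.2 on arrays 1 to 3, where all named genes have a median at the 50th percentile by construction. The genes spread from a mean percentile of 60.6 to 97.2, with the lower and upper quartiles at 79.7 and 89.6. Mean signals ran from 168 to 2959, with a median of 649.9.

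**Figure D1:**
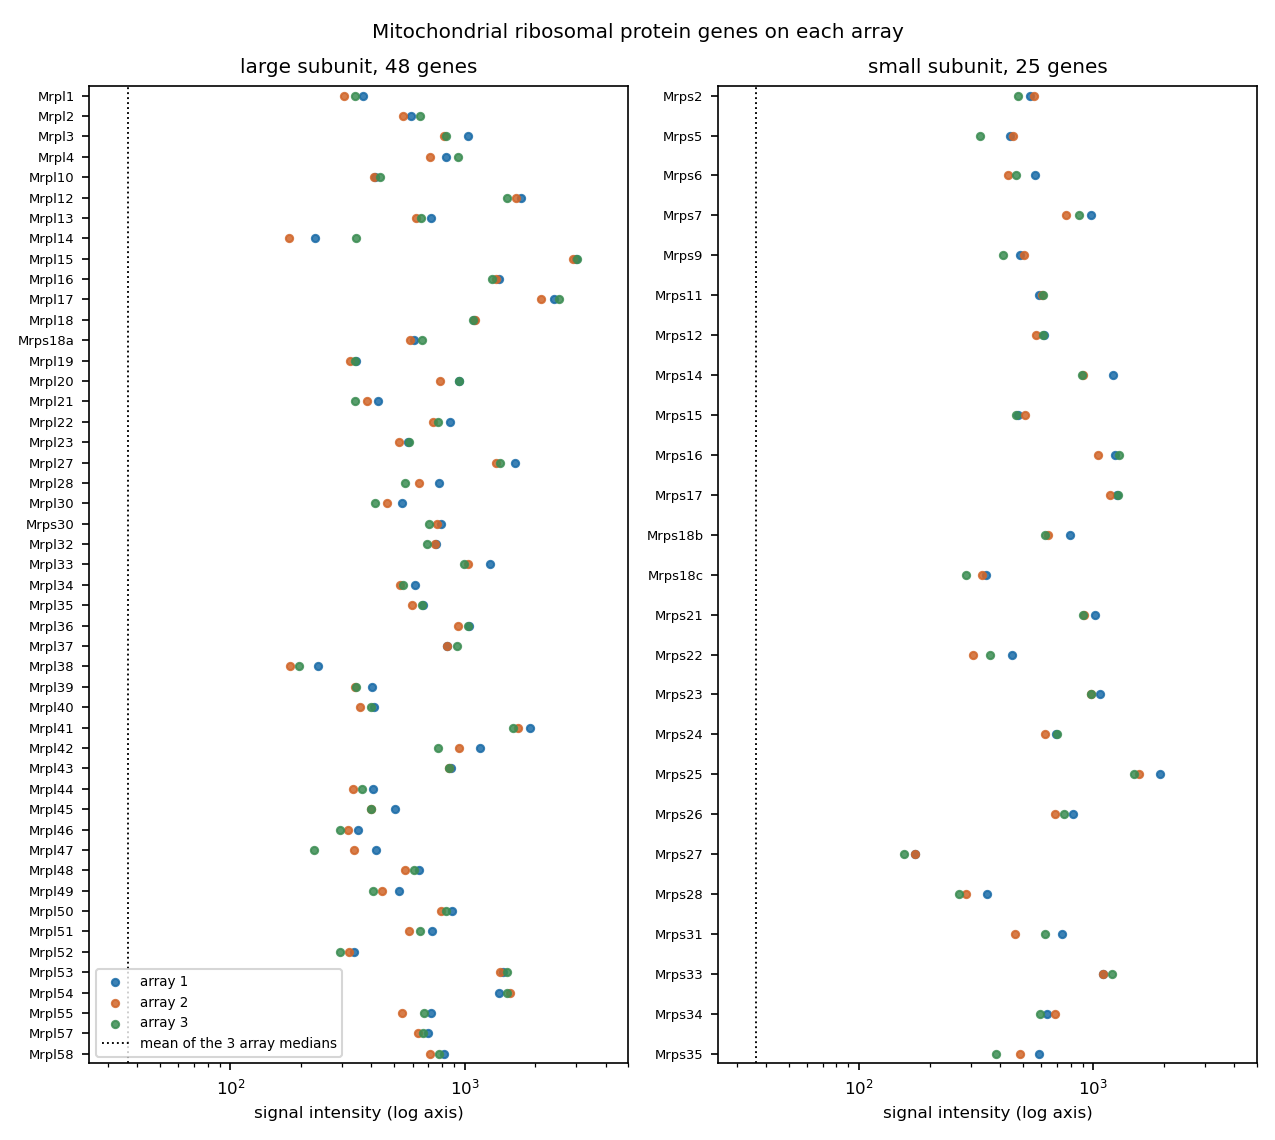
Signal of each mitochondrial ribosomal protein gene on each array, on a log axis, with 48 genes of the large subunit on the left and 25 of the small subunit on the right, in order of gene number. Each point is 1 array, and the dotted line is the mean of the 3 array medians; every gene lies to the right of it on every array.

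The median percentile, averaged over the arrays, was 85.4 for the large subunit and 84.3 for the small subunit. Genes classed as bacterial type (42 genes) had a median percentile of 85.1, and genes classed as mitochondria-specific (31 genes) had 85.4. The latter class holds Mrps18a and Mrps18b, although both are related to the bacterial protein S18. Within the small subunit, the 15 genes of bacterial type stood at 83.6 and the 10 mitochondria-specific genes at 85.6. Within the large subunit, the order was the other way, with 85.8 for 27 genes of bacterial type and 84.8 for 21 mitochondria-specific genes.

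Among the stalk proteins, which recruit elongation factors to the ribosome, Mrpl12 gave 1744, 1660.2 and 1521 on arrays 1, 2 and 3. Mrpl10, which anchors Mrpl12 to the ribosome, gave 413, 409 and 434. Each gene kept its level over the preparations, with ranges (highest over lowest array, after log2(signal + 16) and centring each array on its median) of 1.10-fold for Mrpl12 and 1.11-fold for Mrpl10.

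At the exit of the peptide tunnel, where new proteins meet the inner membrane, Mrpl45 ties the ribosome to that membrane. Its signal was 502, 399 and 399, so array 1 stood apart from the other arrays. Mrpl22 gave 863, 732 and 766, and Mrpl23 gave 576, 524 and 576. Both line the tunnel, and both were lowest on array 2. Mrpl44 gave 407, 335 and 363. Mrpl47, also at the exit, gave 417, 337 and 228 and had the second largest spread of all 73 genes (range 1.70-fold).

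The central protuberance, a landmark of the large subunit that contacts the small subunit, was covered by 7 genes, with a median percentile of 76.9. Mrpl18 was the steadiest of the 73 genes over the preparations, at 1095, 1101 and 1085 (coefficient of variation 0.746%). Mrpl58, which resembles a release factor and can free peptides from stalled ribosomes, gave 816, 709 and 774. Mrpl38 gave 237, 180.4 and 197, and its coefficient of variation was 14.3%. The other 4 genes of the protuberance were Mrpl40, Mrpl46, Mrpl48 and Mrpl52, whose mean signals lay between 317 (Mrpl52, at 336, 322 and 295) and 602 (Mrpl48), and 0 of the 7 reached a range of 1.5-fold, against 21.9% of all named genes and 10.4% of those above the median of each array.

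Other genes of the large subunit follow. Mrpl15 gave 2979, 2889 and 3008, Mrpl17 gave 2399.6, 2110.3 and 2517, and Mrpl41 gave 1908, 1693 and 1604. All are structural proteins of the large subunit, and Mrpl41 is specific to mitochondria. Mrps30 gave 795, 763 and 707, and Mrpl14, an interface protein, gave 231, 179 and 343. After centring on the array median, the range over arrays was 1.07-fold for Mrps30 and 1.94-fold for Mrpl14, the widest of the 73 genes.

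In the small subunit, Mrps12, a protein of the decoding centre, gave 614, 569 and 613. Its mean signal was 599 ± 25.8 (SD, n = 3), with a range of 1.13-fold. Mrps25 gave 1935, 1567 and 1499, Mrps17 gave 1261, 1179 and 1270.0, and Mrps16 gave 1239, 1048 and 1283. Array 1 was highest for Mrps25, whereas array 2 was lowest for Mrps16 and Mrps17. Mrps28 gave 352, 285 and 266, and Mrps27 gave 173, 174 and 156. Mrps27, which has pentatricopeptide repeats, passed the 75th percentile on 1 array.

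Mammals have 3 genes related to the bacterial protein S18, and their products occupy separate places in the ribosome. Only Mrps18c was counted above with the bacterial type. Mrps18a of the large subunit gave 607, 582 and 657. Mrps18b gave 796, 638 and 621, and Mrps18c gave 347, 335 and 287. Each of the genes was above the 75th percentile on every array, with ranges of 1.18-fold, 1.25-fold and 1.15-fold, so all 3 transcripts were measured in these tubules. In uncentred signal, array 3 was the highest for Mrps18a and the lowest for Mrps18b and Mrps18c.

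A list of 77 mitochondrial ribosomal genes of this naming pattern held the 73 measured ones. The symbols Mrpl9, Mrpl11, Mrpl24 and Mrps10 were not named by any 1-gene probe set and were not analysed here, nor was Mrps36, whose product belongs to the oxoglutarate dehydrogenase complex. Subunits of the ribosome whose symbols follow another pattern were followed as well. Dap3, a GTP-binding protein of the small subunit, gave 388, 304 and 387. Aurkaip1 gave 818, 919.8 and 843, Chchd1 gave 779, 749 and 718, and Gadd45gip1 gave 536, 503 and 541. Ptcd3, which sits where messenger RNA enters, gave 2376, 2561 and 1374 and was lower on array 3 than on the others. These 5 genes had a median percentile of 86.8, and all 5 exceeded the median of each array.

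Genes with several probe sets show how far a signal depends on the probe. Of the 73 genes, 55 had 1 probe set and 18 had several, 42 probe sets in all. Each gene took the probe set of highest mean signal. In 11 of the 18 genes, every probe set exceeded the median of each array, and the ratio of the highest to the lowest mean signal was from 1.26-fold (Mrps9) to 17.0-fold (Mrpl12). In the other 7 genes, at least 1 probe set did not pass the median on all arrays. For Mrps26, a probe set at 816, 686 and 747 stood beside another at 0.716, 1.60 and 0.604. For Mrps22, the values were 451, 306 and 364 against 2.41, 3.89 and 2.56. For Mrps2 and Mrps24, the lowest probe sets had mean signals of 12.1 and 22.7. For Mrpl37, probe sets gave means of 869, 160.4 and 3.86, and for Mrps18c 323, 199 and 1.08. The lowest of 3 probe sets for Mrps27 gave 31.6, 27.0 and 39.6 and passed the median on array 3. In Mrps26, Mrps22, Mrpl37 and Mrps18c, 1 probe set lay below the 25th percentile of every array (9.23 to 10.3). It coexisted with a clear signal from another probe set for the same gene. The lowest probe sets of Mrps2, Mrps24 and Mrps27 had higher means. Why probe sets of a gene differed was not tested.

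**Figure D2:**
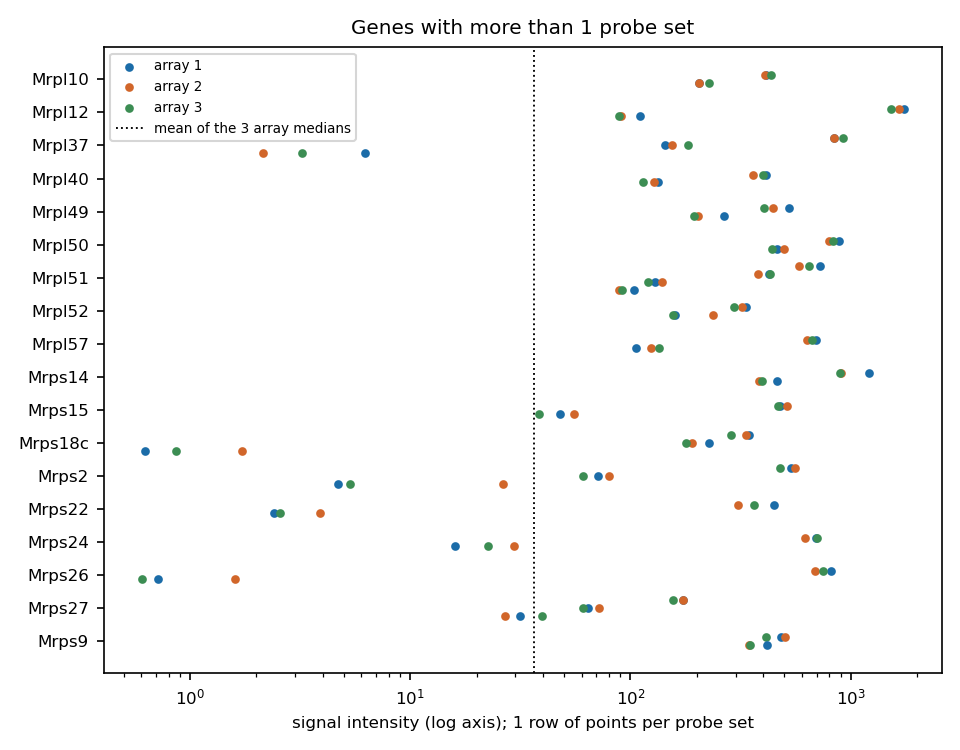
Signals of the 18 genes with more than 1 probe set, on a log axis; each row of points is a probe set, each point an array, and the dotted line is the mean of the 3 array medians. In Mrpl37, Mrps18c, Mrps2, Mrps22, Mrps24, Mrps26 and Mrps27 a probe set falls left of the line on at least 2 arrays.

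The level of the group was also read without taking the highest probe set of a gene. Of the 55 member genes with 1 probe set, 55 exceeded the median of each array, against 55.5% of all named genes with 1 probe set, and their median percentile among genes with 1 probe set was 86.6. With the lowest probe set of every gene, 66 of 73 exceeded it, against 48.7% of all named genes, and the median percentile among genes treated alike was 88.6. Both alternatives were chosen after the data had been seen.

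The preparations were then compared for these genes. On the linear, uncentred signals, the median coefficient of variation over the 3 arrays was 8.68% for the 73 genes, against 16.6% for all named genes and 9.47% for the 3555 named genes of highest mean signal (the high-signal genes). After log2(signal + 16) and centring on each array's median, the median SD was 0.12 for the members and 0.14 for the high-signal genes. A range of 1.5-fold or more was seen in 3 of 73 genes (Mrpl14, Mrpl47 and Mrps31), against 21.9% of all named genes, 10.4% of named genes above the median of each array and 213 of the 3555 high-signal genes. A range of 2-fold was seen in 0 of 73, against 4.46%. The median spread of the members was close to that of the high-signal genes.

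Mrpl14, Mrpl47, Mrps31, Mrps22 and Mrps35 had the widest ranges, and they did not move together. Mrpl14 deviated from its mean by -0.09, -0.43 and 0.52 log2 units on arrays 1, 2 and 3 and was highest on array 3. Mrpl47 deviated by 0.35, 0.05 and -0.41 and was lowest there. Mrps31, whose product lies in the head of the small subunit, gave 735, 463 and 621 and was lowest on array 2. Mrps22 gave 451, 306 and 364 and followed the order of Mrps31, whereas Mrps35 gave 589, 488 and 383 and followed the order of Mrpl47. Without array 1 or without array 3, 1 gene kept a range of 1.5-fold, and without array 2, 2 genes did.

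In centred values, array 2 was the lowest of the 3 for 49 of the 73 genes, array 3 for 20 and array 1 for 4, against 46.4%, 27.2% and 26.4% of all named genes. Array 1 was the highest for 43, array 3 for 25 and array 2 for 5, against 41.8%, 36.8% and 21.3%. Among the 3555 high-signal genes, array 2 was the lowest for 2416 and array 1 the highest for 2087, shares close to those of the members. The median deviation of the 73 genes was 0.07, -0.10 and 0.02 log2 units on arrays 1, 2 and 3, beside 0.08, -0.10 and 0.02 for the high-signal genes. After quantile normalization the deviations were -0.01, 0.00 and 0.00, so the shift of array 2 depends on the scaling. Beta-actin control probe sets, compared between their 3′ and 5′ ends, gave ratios of 3.85, 3.28 and 3.66, lowest on array 2. The same ratio for GAPDH was 1.52, 1.52 and 1.40, lowest on array 3. The part of RNA quality in the shift was not tested. By subunit, array 2 was the highest for 0 of 48 genes of the large subunit and for 5 of 25 of the small subunit (Mrps2, Mrps5, Mrps9, Mrps15 and Mrps34), against 21.3% of all named genes and 6.67% of the high-signal genes. This count was noticed in the data and was not tested.

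Differences of 1.5-fold or more were also counted by pairs of arrays. From array 1 to array 2, 0 genes were higher and 1 lower (Mrps31), against 4.92% and 5.67% of named genes, and 4 and 103 of the 3555 high-signal genes. From array 1 to array 3, 1 was higher (Mrpl14) and 1 lower (Mrpl47), against 6.22% and 5.2%, and 34 and 62 high-signal genes. From array 2 to array 3, 1 was higher (Mrpl14) and 0 lower, against 6.44% and 4.23%, and 83 and 20 high-signal genes. The members' counts are small, as are the shares of the high-signal genes. These are single arrays on each side, with no replicate check.

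**Figure D3:**
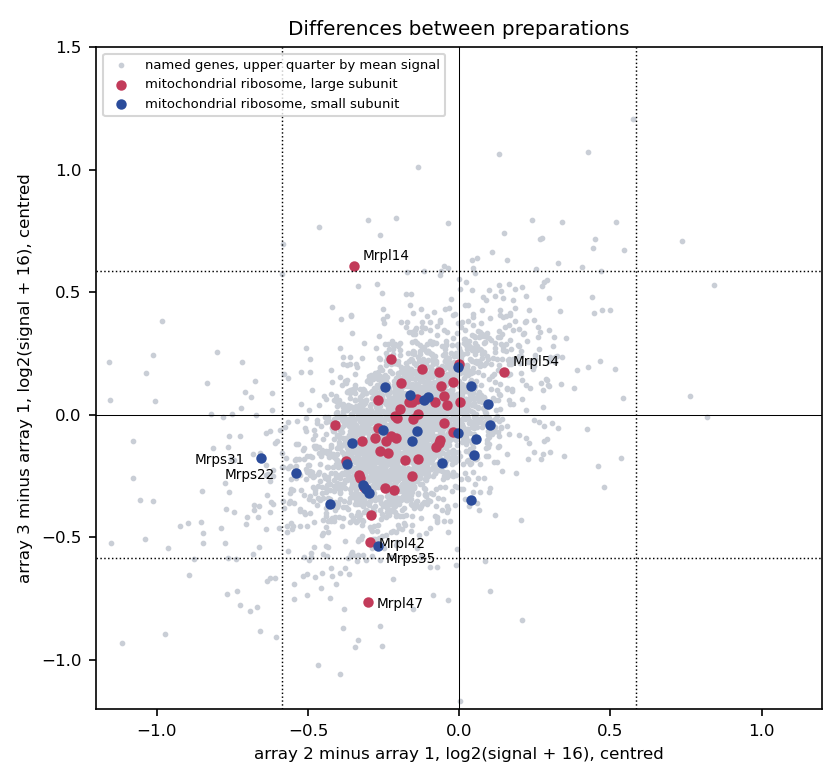
Difference of array 2 from array 1 (horizontal) and of array 3 from array 1 (vertical) in centred log2(signal + 16), for 48 large-subunit genes (red), 25 small-subunit genes (blue) and the 3555 high-signal genes (grey; 14 lie outside the axes). Dotted lines mark 1.5-fold; Mrpl14, Mrpl47 and Mrps31 lie beyond them.

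The ribosomal proteins were set beside the rest of the machinery that makes mitochondrial proteins. Their median percentile of 85.2 lay below those of nuclear respiratory chain and ATP synthase genes (98.1, 78 genes) and of cytosolic ribosomal protein genes (98.2, 47 genes). It lay above those of translation factors (70.9, 14 genes measured of 16), ribosome assembly and rRNA modification genes (64.3, 25 genes) and tRNA-charging enzymes of mitochondria (57.4, 16 genes measured of 20). The median of each array was exceeded by 11 of 14 translation factors, 22 of 25 assembly genes, 15 of 16 tRNA-charging genes, 40 of 47 cytosolic ribosomal genes and 71 of 78 respiratory chain genes, against 61.0% of all named genes. Above the 75th percentile on all arrays were 8 of 14, 13 of 25, 4 of 16, 38 of 47 and 70 of 78, against 36.4%. The cytosolic and respiratory chain lists also hold paralogues and alternative isoforms. Respiratory chain genes that did not exceed the median of each array were Cox4i2, Cox6a2, Cox6b2, Cox7a1, Cox7b2, Cox8b and Ndufa4l2, all of this kind. Among cytosolic ones, these were the paralogues Rpl26l1, Rpl3l and Rpl39l1, and also Rpl28, Rpl30, Rpl39 and Rps13. Among cytosolic ribosomal proteins, the mean signal (± SD, n = 3) was 9966 ± 719.5 for Rps29, 7427 ± 796 for Rpl26 and 4.84 ± 2.96 for the paralogue Rpl39l1. Among respiratory chain and ATP synthase genes it was 9619 ± 472 for Atp5f1b and 9006 ± 540.2 for Atp5f1c. The isoform gene Cox6a2 was lowest at 4.02 ± 2.91, beside 6460 ± 328 for Cox6a1. The differences between groups of genes were not tested.

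Among the translation factors, Tufm, which delivers charged tRNA to the ribosome, gave 1951, 1755 and 1742. Lrpprc, a stabiliser of mitochondrial messenger RNA, gave 1529.9, 1455 and 1366. Gfm1, the factor that moves the ribosome along the message, gave 706, 1035 and 596 and was highest on array 2, unlike most of the ribosomal proteins. Taco1, a translational activator of COX1, gave 34.7, 27.4 and 14.0 and was below the median on all arrays. In the assembly list, Mterf3 gave 1219.7, 1029.5 and 795, Mpv17l2 gave 597, 599 and 692, and Eral1, a chaperone of the small-subunit RNA, gave 11.2, 13.9 and 3.42. Among the tRNA-charging enzymes, Tars2 gave 310.1, 294 and 329, Iars2 gave 311, 275 and 303, and Ears2 gave 54.0, 52.6 and 32.4.

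**Figure D4:**
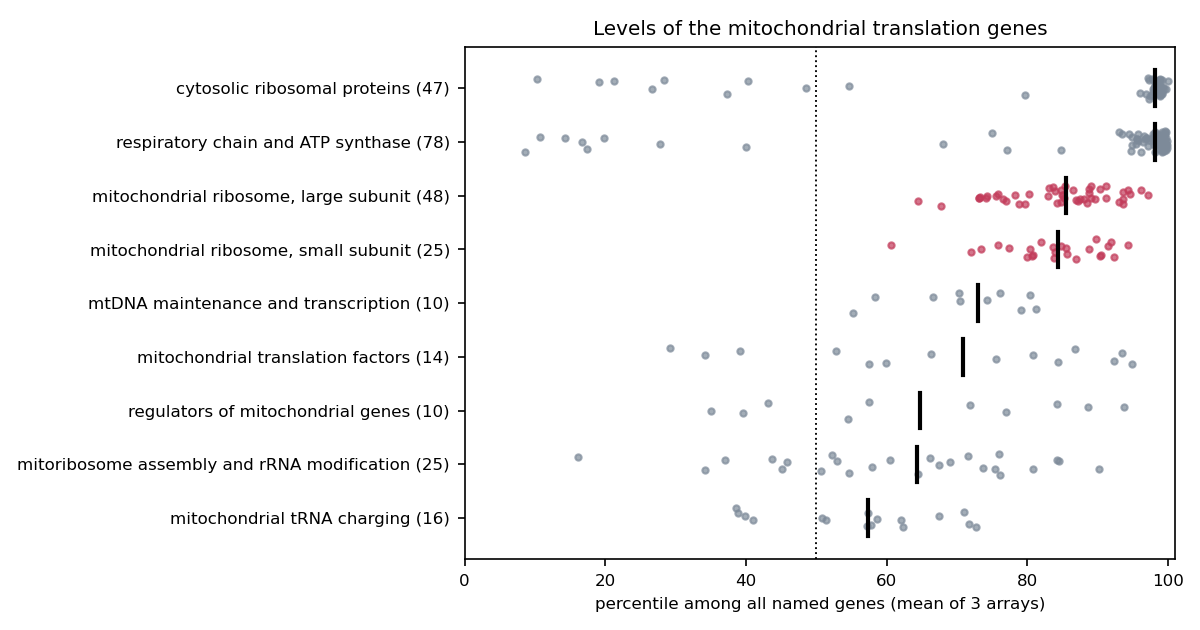
Percentile of each gene among all named genes, as the mean of 3 arrays, for the subunits of the mitochondrial ribosome (red) and related gene groups (grey), with the number of genes in brackets; black bars are group medians averaged over arrays and the dotted line is the 50th percentile. The ribosomal proteins lie between 60.6 and 97.2, below most respiratory chain and cytosolic ribosomal genes and above most tRNA-charging genes.

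The promoters of the genes were read to see what they share beyond the name. RefSeq windows from 250 bases before to 50 bases after the annotated start (build GRCr8) were found for 59 of the 73 genes, and for 11733 of all named genes. The median G+C content was 56.0% for the members and 60.0% for all named genes. The letters CCGGAAG, the core site of ETS factors such as GABPA, occurred on either strand in 20 of 59 windows (33.9%), against 15.1% of all named genes and 20.4% of the high-signal genes. Respiratory chain genes held them in 27.5% of windows, mitochondrial tRNA-charging genes in 6 of 16 and mitochondrial DNA expression genes in 7 of 10. The letters AAGATGGCG, the site of YY1, occurred in 8 of 59 (13.6%), against 3.14% and 4.59%, with 14.5% of respiratory chain genes and 3 of 16 tRNA-charging genes. The letters GCGCATGC, the core site of NRF1, occurred in 5 of 59 (8.47%), against 4.30% and 5.88%, with 10.1% of respiratory chain genes. GABPA, NRF1 and YY1 are transcription factors known for nuclear genes of mitochondria.

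The median first base of the matches was at -24.5 for the ETS letters, -53.0 for NRF1 and 19.5 for YY1, where -1 is the last base before the start. Over all named genes these medians were -55.0, -69.0 and 4.0. Both strands were searched, so overlapping NRF1 letters on opposite strands entered as separate matches. The members had 11 NRF1 matches in 5 windows. At least 1 of the 3 motifs was present in 49.2% of the members' windows (30 of 59 held none), against 20.7% of all named genes, 28.0% of the high-signal genes, 40.6% of respiratory chain genes and 35.7% of cytosolic ribosomal genes. The windows without any numbered 6 of 12 for translation factors, 6 of 16 for tRNA charging and 1 of 10 for mitochondrial DNA expression. By subunit, the share was 57.5% of 40 large-subunit and 31.6% of 19 small-subunit windows. The GC box GGGCGG was in 50.8% of the members' windows and 57.5% of all, the letters CCAAT were in 44.1% and 37.3%, and TATAAA on the gene's strand was in 6.78% and 5.80%. A match is a description of letters, not evidence of binding, and no share was tested.

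The sequences below show these letters where they occur before the start. For each motif the member of highest mean signal with the letters before its start was taken. For YY1, Mrpl36 was the only member with the letters there. In the other members with YY1 letters, they began at or after the start, on the strand of the gene. Each sequence is the 250 bases before the start, 5′ to 3′ on the strand of the gene, with the motif letters of any of the 3 factors in capitals. Mrpl27 (chr10:80092095-80092344, plus strand) carries the ETS letters, Mrpl17 (chr1:169575700-169575949, minus strand) carries the NRF1 letters at more than 1 place, and Mrpl36 (chr1:31795122-31795371, minus strand) carries the ETS letters and, on the other strand, the YY1 letters, all in GRCr8.
Mrpl27: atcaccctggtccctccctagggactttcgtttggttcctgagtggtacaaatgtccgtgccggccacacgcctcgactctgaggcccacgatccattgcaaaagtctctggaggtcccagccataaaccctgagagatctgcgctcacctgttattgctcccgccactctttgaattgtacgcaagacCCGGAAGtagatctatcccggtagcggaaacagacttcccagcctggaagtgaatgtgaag
Mrpl17: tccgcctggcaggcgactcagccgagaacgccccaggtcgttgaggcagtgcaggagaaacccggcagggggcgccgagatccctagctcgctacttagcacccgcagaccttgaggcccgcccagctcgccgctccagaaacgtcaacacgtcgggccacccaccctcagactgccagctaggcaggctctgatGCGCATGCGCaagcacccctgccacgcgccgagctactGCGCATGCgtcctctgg
Mrpl36: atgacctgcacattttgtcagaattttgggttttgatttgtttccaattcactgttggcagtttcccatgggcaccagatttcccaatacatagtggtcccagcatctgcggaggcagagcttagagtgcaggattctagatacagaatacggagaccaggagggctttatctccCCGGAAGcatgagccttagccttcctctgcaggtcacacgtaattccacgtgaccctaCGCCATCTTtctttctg

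The genes carrying these stretches were all clearly measured: Mrpl27 gave 1632, 1366 and 1409, Mrpl17 gave 2399.6, 2110.3 and 2517, and Mrpl36 gave 1043, 932 and 1034. Array 2 was the lowest for each of them.

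Some promoter windows overlapped that of a neighbouring gene, which does not by itself show a shared promoter. In 15 of 59 members (25.4%), the window overlapped by at least 50 bases the window of a gene read in the opposite direction with its start on the other side, against 11.3% of all named genes, 14.5% of the high-signal genes and 26.1% of respiratory chain genes. Among related lists, such overlaps were found for 6 of 16 tRNA-charging, 2 of 10 mitochondrial DNA expression and 4 of 22 assembly genes. They were found for 1 of 12 translation factors and 5 of 42 cytosolic ribosomal genes. Of the members' 15 neighbours, 11 had a signal here, and 10 of these exceeded the median of each array, against 61.0% of named genes. Mrpl46 and Mrps11 are each other's neighbour, so both are among the 10. The neighbours included Psma2, a proteasome subunit (1659, 1469.6 and 1359), beside Mrpl32, and Tcp1, a chaperonin subunit (1946, 1528 and 1530.4), beside Mrpl18. Ndufb5 of respiratory complex I gave 5547, 4436 and 5270.0 beside Mrpl47, so the array lowest for Mrpl47 was not the lowest for its neighbour. Hira beside Mrpl40 gave 127, 131 and 103, and Helq beside Mrps18c gave 52.2, 33.3 and 37.0.

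One pair joins both subunits: Mrpl46 of the large subunit and Mrps11 of the small subunit are read in opposite directions from starts that are separated by the following 233 bases (GRCr8, chr1:142117031-142117263, plus strand, the strand of Mrps11). This pair was chosen after the neighbours had been seen, and the stretch is shown because it lies before the start of both genes. It holds none of the ETS, NRF1 or YY1 letters, so nothing is in capitals. The YY1 letters of Mrpl46 lie outside it, at bases 25 to 33 after the start of that gene. The stretch does hold TATAAA, at -82 to -77 from the start of Mrps11.
Mrpl46 and Mrps11: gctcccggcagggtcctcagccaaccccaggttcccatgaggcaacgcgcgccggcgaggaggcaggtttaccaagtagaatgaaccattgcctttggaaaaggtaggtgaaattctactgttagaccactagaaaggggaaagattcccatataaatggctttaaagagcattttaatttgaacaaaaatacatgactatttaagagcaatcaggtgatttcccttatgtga
Mrpl46 gave 351, 319 and 294, and Mrps11 gave 585, 605 and 608. Their order over the arrays was opposite, with array 1 highest for Mrpl46 and lowest for Mrps11, but the ranges were small, 1.13-fold and 1.08-fold.

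**Figure D5:**
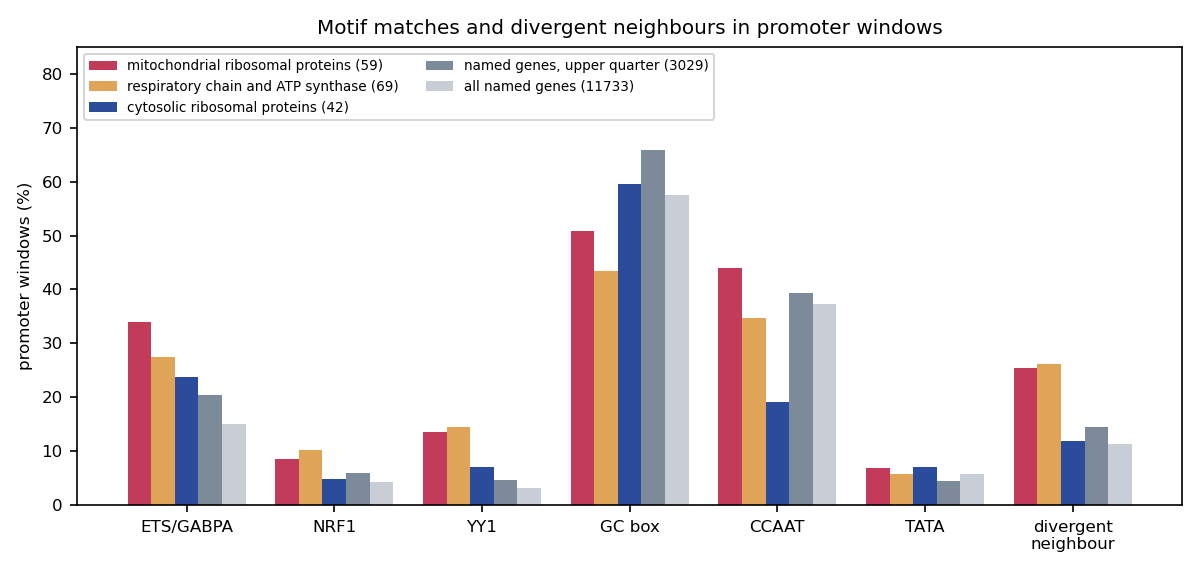
Share of promoter windows of 300 bases that hold each motif or overlap the window of a divergent neighbour, for 59 mitochondrial ribosomal protein genes, 69 respiratory chain and 42 cytosolic ribosomal protein genes, 3029 high-signal genes and 11733 named genes. ETS letters were in 33.9% of the members' windows and 15.1% of all, and divergent neighbours in 25.4% and 11.3%.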

How the data were processed

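Signal intensities of 3 arrays, 1 per tubule preparation and all in 1 group, were used on the linear scale as deposited. The summarisation software and scaling between arrays are not given in the sources used here; biotin labelling used standard Affymetrix procedures, per the labels. Gene names came from the platform annotation: 20826 probe sets named 1 gene, 436 several and 9780 none, and 57 were controls. All 73 member genes matched a GRCr8 RefSeq gene table by identifier, with the same symbol. Each gene took its probe set of highest mean signal. Percentiles were ranks among named genes per array, and a group's value is its median averaged over arrays. Array differences used log2(signal + 16) centred on each array's median, with 1.5-fold as the threshold. Promoter windows and motif letters were searched with Python 3.11.15; where a gene had several starts, the first listed was used, and opposite-strand windows that overlapped were checked to be reverse complements (1243 of 1243). No test between conditions was possible: the design has 1 group, and genes are not replicates. The number of arrays limits precision. Members, lists and the naming rule (site members, the 3 highest and 3 lowest genes by signal in each subunit, the 5 widest ranges, the Mrps18 genes, Mrps30, genes with discordant probe sets; the 2 highest and the lowest gene of each related list; the highest-signal member for each motif) were chosen with earlier results of these data known; genes outside it (Gfm1, the divergent neighbours) were chosen after their values were seen. Protein sequences were not analysed here.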

Additional observations from a re-analysis of the deposited data

How the results depend on the processing

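Members exceeding the median of each array numbered 73 under each alternative that kept all genes, except 66 with the lowest probe set. Without shared-transcript probe sets 72 members were left, and all 72 exceeded it. At the 75th percentile the number was 72. Averaging a gene's probe sets moved the median percentile to 86.8 for all members, 87.3 for the large and 85.7 for the small subunit, and 87.5 for bacterial-type and 85.8 for mitochondria-specific genes. Without the lowest 20% of named genes the same groups gave 81.5, 81.8, 80.4, 81.4 and 81.7, since fewer low genes remained below them. Only genes with 1 probe set gave 86.6, 86.7, 86.6, 86.5 and 87.1, and the lowest probe set gave 88.6, 88.9, 87.2, 88.8 and 87.2; both were added after seeing the data. The order of bacterial-type and mitochondria-specific genes turned with averaging and with the lowest probe set. Without shared-transcript probe sets or without any array, these percentiles moved by less than their spread over arrays. Members ranging by 1.5-fold numbered 1 to 2 when an array was left out, 0 at 2-fold and 2 to 4 under the other alternatives. The median SD of 0.12 was 0.083 to 0.13 when an array was left out and 0.098 after quantile normalization; the cause was not tested. The median deviations kept their signs except on arrays 1 and 2 after quantile normalization (-0.012 and 0.0032) and on array 3 without centring (-0.027) or with a pseudocount of 64 (-0.0026). No paired analysis was possible because all arrays form 1 group. With 3 arrays, small differences between preparations cannot be told from measurement error.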

Other observations

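Among genes that keep and transcribe mitochondrial DNA, signals of all 10 measured exceeded the median of each array, against 61.0% of all named genes, with a median percentile of 72.9. Polg2, the accessory subunit of the mitochondrial DNA polymerase, gave 504, 476 and 509.6. Tfb2m, which starts transcription of mitochondrial DNA, gave 549, 460.0 and 427, and the helicase gene Twnk gave 147, 122 and 113. In centred values, array 1 was the highest of the 3 for 7 of these 10 genes and array 3 the lowest for 7. The shares were 41.8% and 27.2% of all named genes, and 58.7% and 22.5% of the high-signal genes.

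Regulators of nuclear genes for mitochondria had a median percentile of 64.7, with 9 of 10 exceeding the median of each array, against 61.0% of all named genes. The factor gene Yy1 gave 1407, 1545 and 1580.4, and Esrrg, an orphan nuclear receptor gene, gave 854, 901 and 806. Myc gave 41.2, 31.2 and 33.8 and passed the median on 1 array. Array 2 was the highest for 6 of the 10 regulators, against 21.3% of all named genes and 6.67% of the high-signal genes. Transcript levels do not measure the activity of these factors. The transcripts COX1 (12627, 11551 and 12029.8) and COX2 (14158, 11352 and 13395), which the mitochondrial ribosome translates, were both lowest on array 2. In centred values, array 2 was also the lowest for 46.4% of all named genes and 2416 of the 3555 high-signal genes. The same held for 68 of 78 respiratory chain genes.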
